A study of Caenorhabditis elegans with 51 samples.

Results

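The fbxa genes encode the F-box A family of C. elegans, and their transcripts were followed here in dissected lineages of embryos at the 100-cell stage. Members were all genes listed under a name that begins with fbxa, which gave 222 of the 31383 genes in the files. The libraries came from single embryos dissected by aspiration in 3 marker strains. In the pCEH-51::mNG strain, descendants of the MS blastomere (MS+, n = 7) were set against the rest of the same embryos (MS-, n = 7). In the pFKH-2::mNG strain, descendants of the D blastomere (D+, n = 7) were set against the rest of their embryos (D-, n = 7). In the pR02D3.1::mKate2;pHLH-1::mNG strain, the C descendants that internalize (C-in, the Cxp cells, n = 5), the C descendants that stay at the surface (C-out, the Cxa cells, n = 5) and the remaining cells (C-, n = 5) came from the same embryos. The labels name only these fluorescent reporters, and no mutation or treatment, in any group. The 43 accepted libraries came from 19 embryos, and each library is 1 dissection of 1 embryo. MS+, D+ and C-in cells move inwards during gastrulation, and the dissections ask which transcripts differ between these cells and the rest of the embryo. That rest (MS-, D- or C-) still holds the internalizing lineages not drawn off, among them the endodermal E cells. It is therefore not a group of non-internalizing cells.

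An F-box protein is the part of an SCF ubiquitin ligase that picks the target. Its F-box motif binds an SKP1-type adaptor (an skr gene product in C. elegans), which links it to the cullin scaffold CUL-1 and the RING protein RBX-1, and the rest of the protein binds a substrate that is then tagged with ubiquitin. Nematodes carry very large F-box families, and the fbxa, fbxb and fbxc genes are among the named families in C. elegans. For nearly all fbxa genes no substrate is known, so no individual role is given for most members below. In RefSeq's WBcel235 annotation, which was used for names and gene order only, all 222 names were found, 170 as protein-coding genes and 52 as pseudogenes. Chromosome V holds 92 of them, chromosome III 73, chromosome II 21, chromosome X 17, chromosome I 13 and chromosome IV 6.

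Library totals ranged over 1047384 to 2113453 counts in MS+, 1612529 to 2651606 in MS-, 966653 to 2058799 in D+, 1853024 to 2361668 in D-, 1083767 to 1484869 in C-in, 416394 to 2451237 in C-out and 1952810 to 3054633 in C-. Between 1496 and 3714 genes passed 25 RPKM in MS+ libraries and between 3333 and 5387 in MS-, where RPKM scales a gene's reads to its length and to the library's mapped reads, and 25 RPKM is the study's threshold for detection. Of the markers of the dissected lineages, ceh-51 passed 25 RPKM in 6 of 7 MS+ libraries, fkh-2 in 6 of 7 D+ libraries and hlh-1, the muscle transcription factor, in all 5 C-in libraries, while tbx-35, an early MS gene, was at or below 0.89 RPKM in every MS+ library. Outside these cells ceh-51 passed in 5 of 7 MS- libraries, fkh-2 in 4 of 7 D- libraries and hlh-1 in all 5 C- and 2 of 5 C-out libraries. Median levels were 444 RPKM in MS+ and 67.9 RPKM in MS- for ceh-51, and 619 RPKM in D+ and 38.3 RPKM in D- for fkh-2. For hlh-1 they were 691 RPKM in C-in, 82.8 RPKM in C- and 9.71 RPKM in C-out. D+ replicate 8 stood apart by its own lineage markers, since fkh-2 stood at 2.35 RPKM against at least 93.9 RPKM in the other D+ libraries. There hlh-1 stood at 7.11 RPKM against at least 130.1 RPKM, and the summed level of 5 epidermal markers was 1434 RPKM against at most 262 RPKM. Other libraries stood apart by single marker lists. D- replicate 8 had the lowest muscle and neural sums of D-, 61.3 and 20.6 RPKM against at least 313 and 344 RPKM, and MS+ replicate 7 the lowest muscle sum of MS+, 23.4 RPKM against at least 485 RPKM. C-in replicate 4 had an epidermal sum of 956 RPKM against at most 39.4 RPKM, MS+ replicates 3 and 4 had endodermal sums of 2707 and 2964 RPKM against at most 73.6 RPKM, and D+ replicate 3 had a neural sum of 811 RPKM against at most 44.8 RPKM. Several D results are given with and without embryo 8, and the others include it.

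Most of the family was not detected at 25 RPKM in these cells. Of the 222 members, 6 had no count in any of the 43 libraries and 148 never passed 25 RPKM in any library. The remaining 74 passed it in at least 1 library, 23 of them in exactly 1, 39 in 2 to 5 and 12 in 6 or more. Only 6 members passed it in 10 or more libraries, and the most widely detected, fbxa-83, did so in 21. Genes listed as pseudogenes were detected too, as 16 of 52 (30.8%) passed 25 RPKM in at least 1 library, beside 58 of 170 protein-coding members (34.1%).

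By group mean, 13 members were above 25 RPKM in MS+ and 11 in MS-, 8 in D+ and 12 in D-, and 1 for C-in beside 9 for C-out and 13 for C-. Together these were 39 different members, 28 of them above 25 RPKM in exactly 1 group, 6 in at least 4 groups and 0 in all 7. As a share of the family this was 5.86% in MS+ and 4.95% in MS-, against 14.6% and 17.3% of all genes. The group mean often rested on 1 library. In 7 of the 13 members in MS+, 5 of the 8 in D+, 4 of the 9 in C-out and the single member in C-in, only 1 library of the group passed 25 RPKM, whereas this held for 2 of the 11 in MS-, 0 of the 12 in D- and 1 of the 13 in C-. When the group median was used in place of the mean, 1 member passed in MS+ and 6 in MS-, 0 in D+ and 3 in D-, and 0 passed in both C-in and C-out beside 4 in C-. Across the 39 members, the single highest library held a median of 43.5% of the RPKM summed over all 43 libraries, and in 16 of them it held more than 50%.

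**Figure D1:**
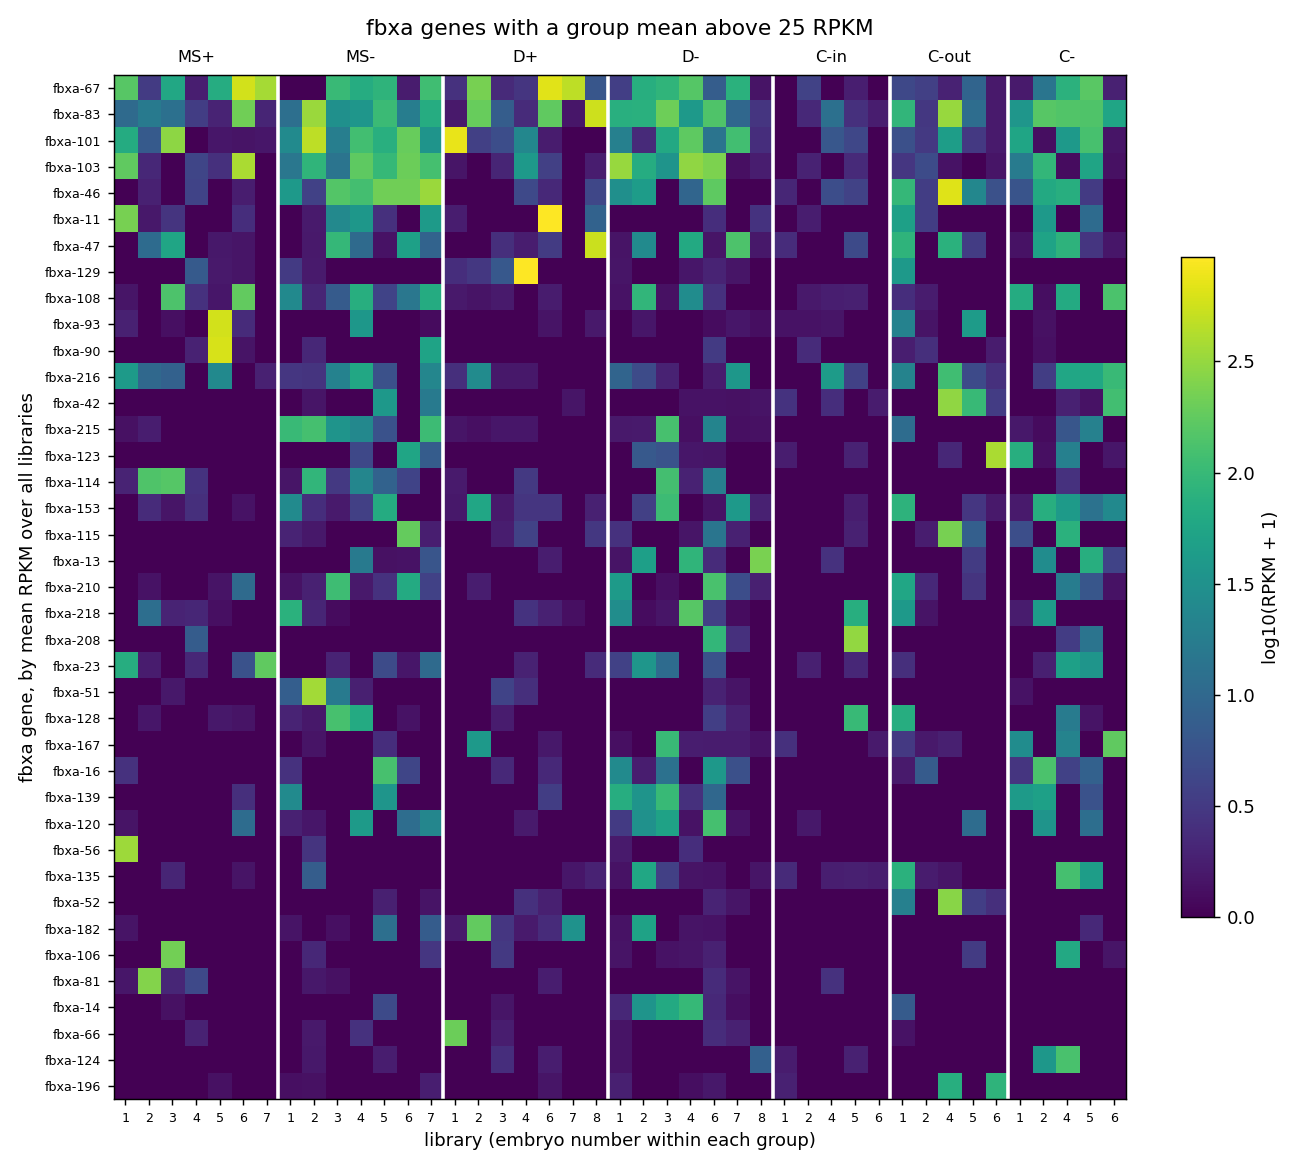
The level of the 39 fbxa genes with a group mean above 25 RPKM (rows, ordered by mean over all libraries) in each of the 43 accepted libraries (columns, grouped by dissection and named by embryo number), coloured by log10(RPKM + 1). The uppermost rows are filled across several groups, most lower rows show 1 or a few bright libraries, and the C-in columns are mostly dark except for replicate 5.

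The other F-box families were detected more broadly in the same libraries. Of 113 fbxb genes, 100 had a group mean above 25 RPKM in at least 1 group, and of 55 fbxc genes 35 did, against 39 of the 222 fbxa genes. In C-in, where 1 fbxa gene passed by the mean, 21 fbxb and 9 fbxc genes passed. In MS+ and MS- the fbxb counts were 74 and 97, and the fbxc counts 21 and 29.

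By the median, fewer members were detected per library in MS+, D+ and C-in than in the rest of the embryo, and so were fewer genes in all. MS+ libraries had 0 to 7 members above 25 RPKM (median 3), against 8 to 16 in MS- (median 11). D+ libraries had 0 to 6 (median 2), against 1 to 15 in D- (median 9). C-in libraries had 0 to 4 (median 1), against 0 to 12 in C-out (median 3) and 5 to 22 in C- (median 10). All genes above 25 RPKM had medians of 2811 and 5116 in MS+ and MS-, 2054 and 4280 in D+ and D-, with 2316 for C-in, 2672 for C-out and 4969 for C-. Members made up a median of 0.125% of the detected genes in MS+ and 0.234% in MS-, 0.108% in D+ and 0.224% in D-, with 0.0432% for C-in, 0.112% for C-out and 0.229% for C-. The rest of an embryo is a larger and more mixed sample of cells than the dissected lineage, and its libraries were deeper, so the number of cells, the mix of cells and the depth cannot be told apart from lineage in these counts. In pooled cells, fewer cells with a transcript and less of it per cell cannot be told apart either.

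**Figure D2:**
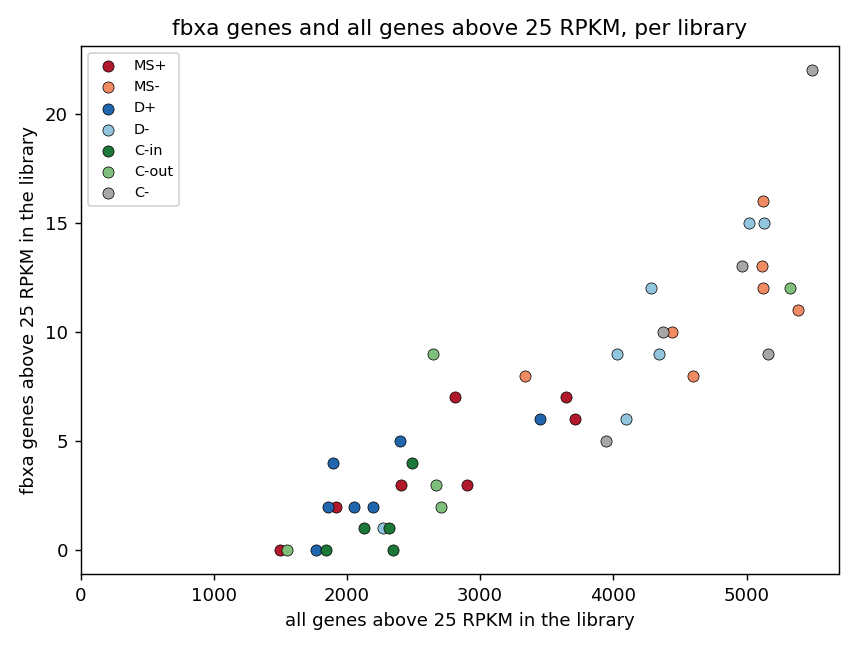
The number of fbxa genes above 25 RPKM (y axis) against the number of all genes above 25 RPKM (x axis) in each accepted library, coloured by group. Libraries of MS+, D+ and C-in sit at the lower left, with 0 to 7 fbxa genes, and most libraries of MS-, D- and C- sit at the upper right, with 1 to 22 fbxa genes.

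Of the 74 members above 25 RPKM somewhere, 41 (55.4%) were so only in MS-, D-, C-out or C- libraries (24 libraries), 6 (8.11%) only in MS+, D+ or C-in libraries (19 libraries) and 27 in both. Over all 10959 genes above 25 RPKM in at least 1 library, the first share was 27.0% and the second 5.79%. The 6 members seen only in MS+, D+ or C-in libraries, fbxa-56, fbxa-81, fbxa-66, fbxa-193, fbxa-112 and fbxa-148, each passed in a single library. On the other side 10 members passed in 4 or more libraries without passing in any MS+, D+ or C-in library, led by fbxa-46, fbxa-42, fbxa-215, fbxa-13 and fbxa-210. They were 35.7% of the 28 members above 25 RPKM in 4 or more libraries, where the same share over 7310 genes was 7.5%. The members and all genes were not matched for how widely they were detected. A gene above 25 RPKM in more than 24 libraries cannot be on 1 side only, and no member passed in more than 21. MS-, D- and C- also hold internalizing cells, so the sides do not part internalizing from non-internalizing cells. These counts carry no test.

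The tests by lineage found no member past the threshold in the fit across genes. edgeR's quasi-likelihood test was run on genes above 25 RPKM in a number of libraries equal to the smaller group's size, with p values adjusted by Benjamini-Hochberg over all genes tested. By it 0 of 3 members were called between MS+ and MS- (background 0.349% of 3730 genes), 0 of 2 between D+ and D- (0.197% of 3039), 0 of 1 between C-in and C- (6.35% of 3572) and 0 of 1 between C-out and C- (0% of 4079). Between C-in and C-out 0 members passed the filter (background 5.66% of 2208 genes). At an unadjusted p under 0.05 the only member was fbxa-83 between C-in and C-. DESeq2 on the same genes called fbxa-67 between D+ and D- and fbxa-83 between C-in and C-, limma on log2(RPKM + 25) called fbxa-83 between C-in and C-, and neither called a member elsewhere.

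Because so few members pass that filter, the mean of log2(RPKM + 25) was also compared by an exact two-sided permutation test for every gene above 25 RPKM in at least 1 library of a comparison. This test called 1 of 50 members between MS+ and MS-, fbxa-46 (background 2.73% of 8651 genes). It called 0 of 40 between D+ and D-, 0 of 24 between C-in and C-out, 0 of 39 between C-in and C- and 0 of 45 between C-out and C-, where the background was 0% in each (8466, 7334, 8153 and 8414 genes). With 5 against 5 libraries the smallest p such a test can give is 0.00794, before any adjustment. At an unadjusted p under 0.05 there were 4 members in MS, 9 in D, 2 between C-in and C-out, 3 between C-in and C- and 1 between C-out and C-. These were 8%, 22.5%, 8.33%, 7.69% and 2.22% of the members tested, against 19.6%, 18.2%, 10.9%, 24.6% and 13.7% of all genes.

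More members were lower than higher in MS+, D+, C-in and C-out when each was set against its other group, and so were more genes in all, except for all genes in D under median-ratio scaling. On the log2(RPKM + 25) scale, 38 of 50 members (76%) had a lower mean in MS+ than in MS-, with a median difference of -0.29, against 77.8% and -0.36 over all genes. In D+ against D-, 80% were lower with a median of -0.30, against 77.4% and -0.37. In C-in against C-, 89.7% were lower with a median of -0.47, against 78.3% and -0.49. In C-out against C-, 68.9% were lower with a median of -0.32, against 74.5% and -0.38. In C-in against C-out, 79.2% were lower with a median of -0.38, against 58.9% and -0.22 over all genes. Scaling by median ratios in place of the library total moved the median of all genes to -0.07 in MS, 0.05 in D and -0.04, -0.13 and -0.06 in the C comparisons (C-in against C-out, C-in against C- and C-out against C-). The members' medians were then -0.19, -0.14, -0.21, -0.29 and -0.19 in the same order. The shares that were lower were then 70% of members against 53.7% of all genes in MS, 70% against 47.4% in D, 79.2% against 51.6% between C-in and C-out, 87.2% against 54.7% between C-in and C-, and 64.4% against 53% between C-out and C-. A member entered these counts by passing 25 RPKM in either group, so they describe the lists and carry no test.

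The 10 members with the highest mean over the 43 libraries carried 53.5% of the RPKM summed over the family, and the first 4 carried 33.0%. These 4 were fbxa-67, fbxa-83, fbxa-101 and fbxa-103, all protein-coding and all detected in several dissections.

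**Figure D3:**
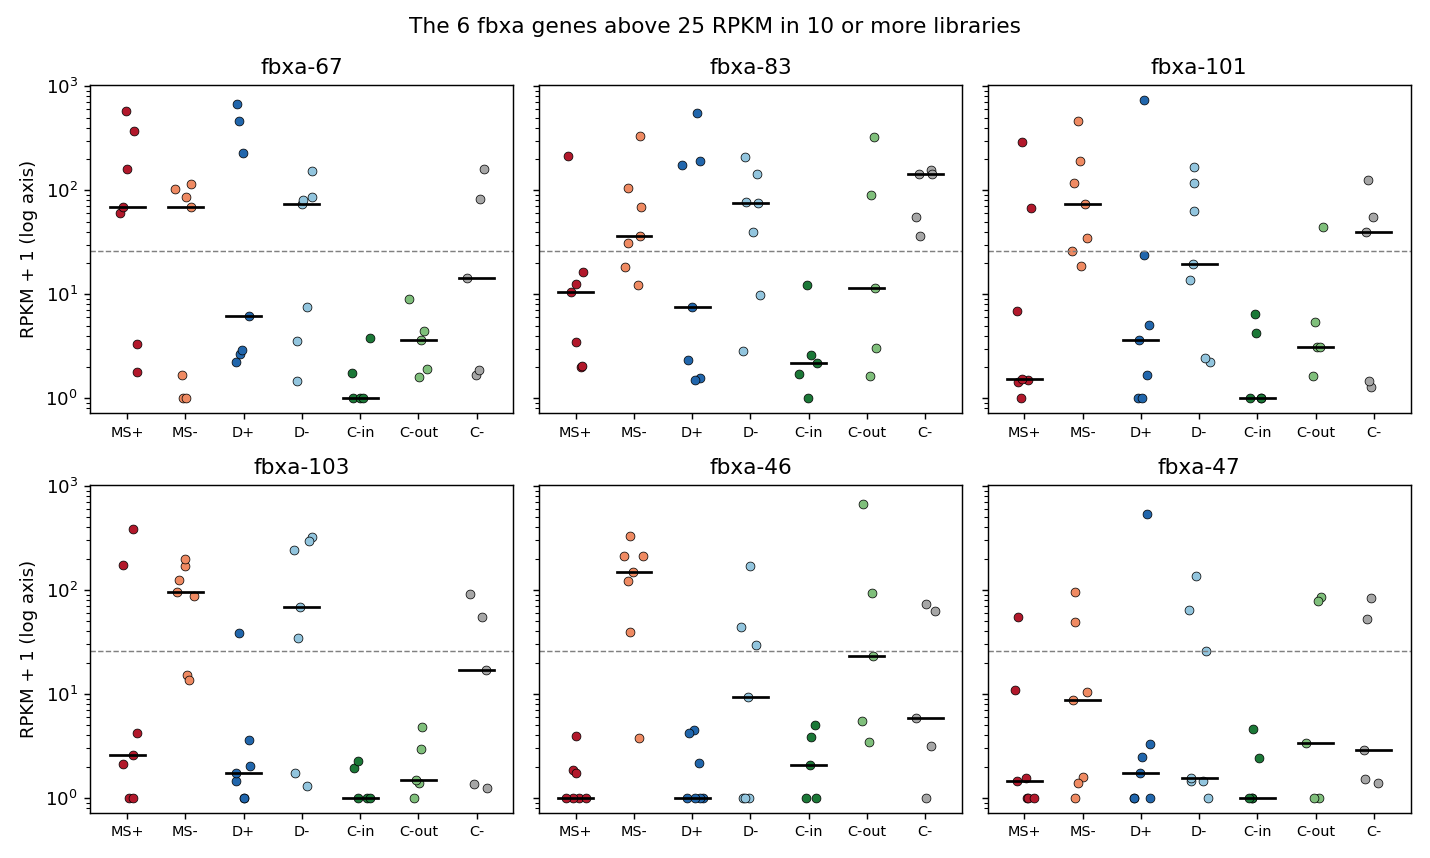
RPKM + 1 on a log axis of the 6 fbxa genes above 25 RPKM in 10 or more libraries, with 1 point per library, a bar at the group median and a dashed line at 25 RPKM. Within most groups the points split into libraries far above and libraries near 0, fbxa-46 lies near 0 in every MS+, D+ and C-in library, and no gene passes the line in C-in.

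Transcripts of fbxa-67 (chromosome III) had the highest mean of the family, and their own highest values were in MS+ and D+. In MS+ they reached 583, 369, 158, 68.4 and 59.3 RPKM in 5 libraries and 2.29 and 0.78 RPKM in the other two, against a highest value of 114 RPKM, a median of 67.9 RPKM and a lowest of 0 in MS-. In D+ they reached 678, 468 and 227 RPKM in 3 libraries and at most 5.24 RPKM in the rest, against a highest value of 152 RPKM, a median of 72.1 RPKM and a lowest of 0.45 RPKM in D-. The 3 highest libraries of each internalizing group thus lay above every library of the rest of those embryos, while the lower ones overlapped them. The log2 fold change was 2.22 (SE 1.40) in MS (adjusted p = 0.72) and 2.36 (SE 1.37) in D (adjusted p = 0.777), both by edgeR's quasi-likelihood test, so neither passed the spread between libraries. Without replicate 6, which held the highest library in both MS+ and D+, it was 1.44 in MS and 1.30 in D. The replicate block gave 1.31 in D, and limma gave 0.50 in D with 25 added and 0.20 with 1 added, and 0.91 in MS with 25 added. DESeq2 gave 3.24 in D with an adjusted p of 0.0427, and over all alternatives for D the adjusted p ranged over 0.0427 to 0.946. The difference between the MS and D fold changes was -0.05 on the log2 scale (adjusted p = 0.995, edgeR interaction term).

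In the C dissection the same gene was near 0 in both C groups. Its values were 2.81, 0.76, 0, 0 and 0 RPKM in C-in and 8.01, 3.40, 2.62, 0.91 and 0.60 RPKM in C-out, against 159, 80.6, 13.2, 0.85 and 0.66 RPKM in C-. All 5 C-in libraries lay at or below 2.81 RPKM, and 3 of the 5 C- libraries lay above every C-in and C-out library. The exact permutation test between C-in and C- gave a log2 difference of -1.09 (p = 0.0635, adjusted p = 0.237 over 8153 genes).

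Transcripts of fbxa-83 (chromosome IV) were the most often detected of the family, and C-in was the one group in which no library passed 25 RPKM. The C-in values were 11.4, 1.58, 1.17, 0.72 and 0 RPKM, against 327, 89.8, 10.4, 2.05 and 0.62 RPKM in C-out and 156, 143, 142, 54.1 and 35.3 RPKM in C-. C-in and C- did not overlap, whereas C-in and C-out did. The log2 fold change of C-in against C- was -4.54 (SE 1.34), with an adjusted p of 0.0594 by edgeR's quasi-likelihood test, where the median over all genes of that fit was 0.69. Exact permutation gave -2.11 on the log2(RPKM + 25) scale with p = 0.00794, the smallest it can give, and an adjusted p of 0.083. DESeq2 (adjusted p = 0.00752) and limma on log2(RPKM + 25) (adjusted p = 0.00416) placed the same difference past the threshold, so the call rests on the test used. Over the alternatives to the edgeR fit the adjusted p ranged over 0.00279 to 0.181, and over those to the permutation test over 0.083 to 0.343, the highest with the replicate block. Between C-out and C- the fold change was 0.24 (SE 1.29, adjusted p = 0.963, edgeR).

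In the MS and D dissections fbxa-83 ranged widely within each group. MS+ held 1 library at 211 RPKM and the rest at or below 15.2 RPKM, against 11.2 to 333 RPKM in MS- with a median of 35.5 RPKM. D+ held 555, 189 and 174 RPKM in 3 libraries and at most 6.51 RPKM in the others, against 1.87 to 207 RPKM in D- with a median of 74.5 RPKM. The highest D+ value came from replicate 8, the library with few D marker transcripts, and the D+ mean was 132 ± 205 RPKM (SD, n = 7) with it and 62.0 RPKM without it, against 78.4 ± 74.3 RPKM in D- (SD, n = 7). edgeR's quasi-likelihood test gave a log2 fold change of 1.43 (SE 1.30, adjusted p = 0.829) in D, which was -0.29 when embryo 8 was left out.

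fbxa-101 and fbxa-103 (both chromosome I) were above 25 RPKM in 16 and 15 libraries. fbxa-101 had 290.2 and 66.4 RPKM in 2 MS+ libraries and at most 5.87 RPKM in the other 5, against 465.6 RPKM at the highest, 73.0 RPKM at the median and 17.9 RPKM at the lowest in MS-. Its log2 fold change in MS was -1.24 (SE 1.33, adjusted p = 0.856, edgeR's quasi-likelihood test). That value was -0.18 without embryo 2, -3.60 without embryo 3, -5.22 with the replicate block (adjusted p = 0.231) and -3.55 with limma on log2(RPKM + 1) (adjusted p = 0.0967), and over all alternatives the adjusted p ranged over 0.0967 to 0.998. In D+ a single library held 741 RPKM and the others at most 22.9 RPKM, against 1.24 to 168 RPKM in D-. In the C dissection it stood at or below 5.46 RPKM in all C-in libraries, at 43.8 RPKM in 1 C-out library and at or below 4.36 RPKM in the other 4, against 125, 54.7 and 38.8 RPKM in 3 C- libraries and 0.46 and 0.29 RPKM in the other two.

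fbxa-103 showed 2 high MS+ libraries, 388 and 173 RPKM, and 5 at or below 3.22 RPKM, against 12.7 to 197 RPKM in MS- with a median of 95.5 RPKM. The 2 groups overlapped, with a log2 fold change of -0.07 (SE 1.35, adjusted p = 0.994, edgeR's quasi-likelihood test), and its sign turned with the scaling. In D+ 1 library had 37.9 RPKM and the rest at most 2.62 RPKM, against 325, 296, 240.4, 67.7 and 33.6 RPKM in 5 D- libraries and 0.74 and 0.31 RPKM in the other two. It was lower in D+ than in D- in all 7 embryos, but in embryos 7 and 8 both libraries were near 0. There D+ had 0 and 0.72 RPKM, against 0.31 and 0.74 RPKM in D-. The exact permutation test gave a log2 difference of -1.78 (p = 0.0297) that did not hold after adjustment over 8466 genes (adjusted p = 0.21), and without embryo 8 the difference was -2.08 (adjusted p = 0.146). C-in and C-out stayed at or below 3.79 RPKM in all 10 libraries, against a highest value of 91.6 RPKM in C-.

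fbxa-46 was the member called by permutation, and its level was near 0 in every MS+, D+ and C-in library. RefSeq lists it as a pseudogene on chromosome X. In all 19 MS+, D+ and C-in libraries its level was at or below 4.08 RPKM, with 16 counts in all, while 13 of the other 24 libraries were above 25 RPKM and together those 24 held 3269 counts. In MS+ it had 2.91, 0.85 and 0.72 RPKM in 3 libraries and 0 in 4, against 329, 213, 211, 149.1, 121, 38.6 and 2.80 RPKM in MS-. Only the lowest MS- library, replicate 2, reached down to the MS+ values, and the level was lower in MS+ in 7 of 7 embryos. The mean was 0.64 ± 1.07 RPKM in MS+ and 152 ± 112 RPKM in MS- (SD, n = 7 each).

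The exact permutation test of that difference gave -2.42 on the log2(RPKM + 25) scale, p = 0.00117 and an adjusted p of 0.0427 over 8651 genes. The call was narrow. Pairing the libraries by embryo, which allows no p below 0.0156, gave an adjusted p of 0.238, median-ratio scaling gave -1.84 (adjusted p = 0.0731), and leaving out any 1 embryo gave adjusted p values of 0.0562 to 0.116 with differences of -2.80 to -2.18. edgeR's quasi-likelihood test without the filter on low values gave an adjusted p of 0.0333.

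Outside MS the same direction was seen with fewer positive libraries. D+ had at most 3.52 RPKM, against 169, 43.3, 28.9 and 8.32 RPKM in 4 D- libraries and 0 in 3 (log2 difference -0.79, exact permutation p = 0.0740, adjusted p = 0.316). C-in had 4.08, 2.82, 1.09, 0 and 0 RPKM, against 669, 93.7, 22.4, 4.45 and 2.45 RPKM in C-out, and 72.4, 62.0, 4.92, 2.18 and 0 RPKM in C-. Between C-in and C-out the log2 difference was -1.58, and it was lower in C-in in 5 of 5 embryos, but it did not pass after adjustment (exact permutation p = 0.0317, adjusted p = 0.434 over 7334 genes). Without replicate 4, whose C-out library held the 669 RPKM, it was -0.83.

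By the group median, both marker lists of ectodermal cells were lower in MS+, D+ and C-in than in MS-, D- and C-out, as was this gene. Single libraries parted from this, such as C-out replicate 6 with an epidermal sum of 1362 RPKM and fbxa-46 at 4.45 RPKM. The order of medians was not particular to ectodermal lists. Endodermal sums had medians of 21.5, 14.2 and 11.2 RPKM in MS+, D+ and C-in, against 903, 1021 and 58.2 RPKM in MS-, D- and C-out. Germ line medians were 0.49, 2.85 and 1.13 RPKM against 22.6, 11.2 and 1.21 RPKM. The muscle and MS lists had higher medians in MS+, D+ and C-in instead. The summed level of 5 epidermal markers (elt-1, lin-26, nhr-25, elt-3 and nhr-171) was 2.29 to 79.2 RPKM in MS+ against 207 to 682 RPKM in MS-, 9.33 to 956 RPKM in C-in against 520 to 1666 RPKM in C-out, and 3.93 to 1434 RPKM in D+ against 104 to 758 RPKM in D-. The lowest epidermal sum among the 13 libraries with fbxa-46 above 25 RPKM was 207 RPKM. Every MS-, C-out and C- library had at least that sum, so it does not set these libraries apart within their groups. Another 13 libraries had at least that epidermal sum without it, among them D+ replicates 4 and 8 and C-in replicate 4. The summed level of 4 neural markers (hlh-14, cnd-1, unc-86 and lin-32) was 5.61 to 899.5 RPKM in MS+ against 562 to 1017 RPKM in MS-, and it was 13.7 RPKM in the C-out library with 669 RPKM of fbxa-46. No defining marker of either ectodermal list was at 0 in all libraries of a group, and the part of any list in the result was not tested.

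**Figure D4:**
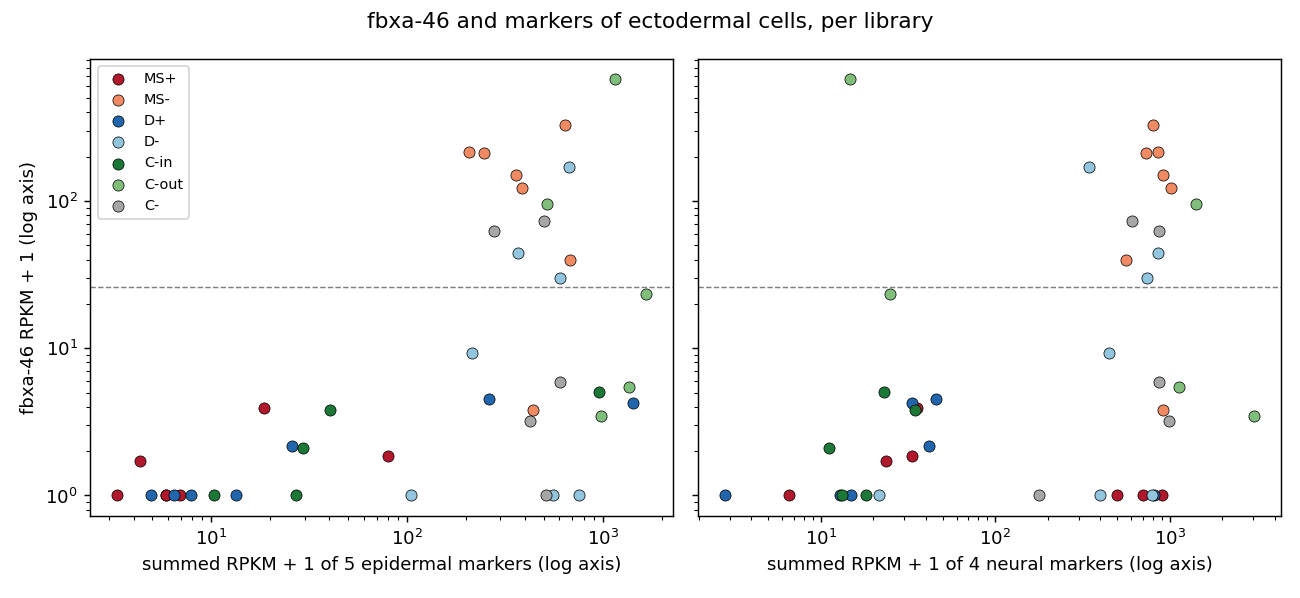
RPKM + 1 of fbxa-46 (y axis, log) against the summed RPKM + 1 of 5 epidermal markers (left, log x axis) and of 4 neural markers (right, log x axis), with 1 point per accepted library and a dashed line at 25 RPKM. Every library above the line has an epidermal sum of at least 207 RPKM, as does every MS-, C-out and C- library. On the right 1 C-out library lies above the line with a neural sum of 13.7 RPKM.

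Further members with small unadjusted p values, apart from fbxa-97, stood near 0 in the internalizing lineages of a dissection without a call. fbxa-215 (chromosome IV) had at most 0.75 RPKM in MS+, against a highest value of 123 RPKM, a median of 33.3 RPKM and a lowest of 0 in MS-. The exact permutation test gave -1.38 (p = 0.00466, adjusted p = 0.077). fbxa-149 and fbxa-141 gave the same p and adjusted p by that test at lower levels, and both had no count in any MS+ library, against highest values of 44.4 and 25.7 RPKM in MS- (log2 differences -0.44 and -0.23). fbxa-215 had no count in any C-in library and at most 0.51 RPKM in D+, against 126 and 21.0 RPKM in 2 D- libraries and at most 0.63 RPKM in the other 5. fbxa-14 (chromosome III) had at most 0.48 RPKM in D+, against 96.7, 63.5 and 33.9 RPKM in 3 D- libraries and at most 1.19 RPKM in the other 4 (log2 difference -0.78, exact permutation p = 0.00874, adjusted p = 0.124, and adjusted p = 0.0593 without embryo 8). fbxa-120 (chromosome X) had at most 0.63 RPKM in D+, against 121.7, 50.05 and 31.2 RPKM in 3 D- libraries and at most 2.23 RPKM in the other 4 (log2 difference -0.78, exact permutation p = 0.0128, adjusted p = 0.144). fbxa-153 (chromosome V) had at most 0.74 RPKM in C-in, against 72.5, 40.7, 24.9, 12.2 and 0.64 RPKM in C- (log2 difference -0.98, exact permutation p = 0.0159, adjusted p = 0.125). fbxa-16 had no count in C-in, against 133.9, 7.31, 2.74, 1.86 and 0 RPKM in C- (log2 difference -0.66, exact permutation p = 0.0476, adjusted p = 0.194). In the C-out comparisons, fbxa-52 had no count in C-in or C- and 272.9, 18.6, 2.55, 1.52 and 0 RPKM in C-out (exact permutation p = 0.0476 in both, adjusted p = 0.439 for C-in against C-out and 0.347 for C-out against C-). fbxa-97 had at most 0.92 RPKM in C-out, against 36.2 and 28.8 RPKM in 2 C- libraries and at most 1.19 RPKM in the other 3 (log2 difference -0.49, exact permutation p = 0.0556, adjusted p = 0.357). In C-in it had 47.6 RPKM in replicate 6 and at most 0.59 RPKM in the other libraries.

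fbxa-11, fbxa-67 and fbxa-83 are in the study's list of genes that became enriched in internalizing lineages. The study selected genes first on a rise over time within a lineage. Its later filters also set Cxp against Cxa cells and capped levels in non-internalizing cells. The comparisons here set a lineage against other cells of the embryo, with C-in against C-out among them. The paper also reports F-box genes in groups of similar genes whose summed transcripts rose in every internalizing lineage it sampled. Such sums were not examined here. The list was chosen in part on these libraries and so gives no independent evidence of direction. For fbxa-11 (chromosome III) the group means rested on single libraries. MS+ had 227 RPKM in replicate 1 and at most 1.81 RPKM in the other 6, against 40.5, 36.3 and 24.2 RPKM in 3 MS- libraries and at most 1.57 RPKM in the rest. D+ had 914 RPKM in replicate 6 and at most 7.68 RPKM in the others, against at most 1.70 RPKM in D-. C-in had 0.71 RPKM in 1 library and 0 in 4, beside 47.8 and 2.47 RPKM in 2 C-out libraries, 39.02 and 9.78 RPKM in 2 C- libraries and 0 in the rest of both.

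Other members high in 1 library labelled as internalizing were of the same kind, among them 1 in D+ replicate 8, the library with few D marker transcripts. fbxa-129 had 931 RPKM in D+ replicate 4 and at most 5.53 RPKM in the other D+ libraries, fbxa-93 had 581 RPKM and fbxa-90 614 RPKM in the same library, MS+ replicate 5, and fbxa-47 had 537 RPKM in D+ replicate 8 and at most 2.28 RPKM in the other D+ libraries. Of these, fbxa-129 and fbxa-93 are listed as pseudogenes. fbxa-208, the single member with a C-in mean above 25 RPKM (61.8 ± 138 RPKM, SD, n = 5), had 309 RPKM in C-in replicate 5 and 0 in the other 4, against 0 in all 5 C-out libraries and 12.7 RPKM at most in C-. That library also held fbxa-77, fbxa-128 and fbxa-218 at 112, 98.6 and 71.7 RPKM, and it was the only C-in library with more than 1 member above 25 RPKM. fbxa-77 and fbxa-208 lie in the same run of members on chromosome III and were high in the same libraries. D- replicate 6 held them at 94.0 and 91.2 RPKM, C- replicate 5 at 11.1 and 12.7 RPKM and MS+ replicate 4 at 6.08 and 6.38 RPKM, whereas fbxa-91, which lies between them, was listed at 71.1 RPKM in C- replicate 4 and at or below 1.14 RPKM in each of these. fbxa-208, fbxa-77, fbxa-128 and fbxa-218 were named after their values were seen.

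Members of intermediate level showed no lineage pattern that passed a test. fbxa-47 (chromosome III) passed 25 RPKM in 11 libraries, in every group but C-in. fbxa-108 (chromosome V) passed in 9, with 178 and 139 RPKM in MS+ and at most 1.64 RPKM in the other MS+ libraries, against a highest value of 72.5 RPKM and a median of 14.2 RPKM in MS-. It stayed at or below 0.67 RPKM in D+, against 90.1 and 26.5 RPKM in 2 D- libraries, and at or below 0.80 RPKM in C-in and 1.43 RPKM in C-out, against 133, 66.2 and 65.1 RPKM in 3 C- libraries. fbxa-216 (chromosome I) passed in 9 libraries spread over all 7 groups, with 41.9 RPKM in 1 C-in library, 114 RPKM in 1 C-out library and at least 56.9 RPKM in 3 C- libraries.

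Removing the filter on low values brought in members whose counts came mostly from a single library. edgeR's quasi-likelihood test on every gene with at least 1 count called 7 of 175 members in MS (background 1.7% of 20435 genes), 4 of 209 in D (1.22% of 23178), 1 of 86 between C-in and C-out (2.37% of 12205), 0 of 104 between C-in and C- (0.841% of 14383) and 2 of 107 between C-out and C- (1.66% of 14694). The members called higher in MS+ were fbxa-81, fbxa-93 and fbxa-112, with 98.2%, 91.5% and 100% of their counts in 1 library, and those called higher in D+ were fbxa-129, fbxa-193 and fbxa-11, with 98.5%, 98.6% and 98.8%. Among those called lower in MS+, fbxa-115 (99%) and fbxa-51 (91.4%) were also carried by 1 library, while fbxa-46 and fbxa-215 had 30.1% and 31.7% of their counts in the highest library. fbxa-13, called lower in D+ with a log2 fold change of -8.54 (adjusted p = 0.0197), had 60.7% of its counts in D- replicate 8. Without embryo 8 it was at -6.28 and not called (adjusted p = 0.144), fbxa-66 was called higher, and fbxa-129, fbxa-193 and fbxa-11 were called as before, which again made 4. fbxa-52, lower in C-in than in C-out and higher in C-out than in C-, had 91.1% of its counts in C-out replicate 4, and fbxa-196, higher in C-out than in C-, had 53% there.

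Members of one family can share sequence, and many lie close together on the chromosomes, which bears on how reads were shared out. With at most 3 other genes between neighbours, 161 of the 222 fell into 38 runs of 2 or more members, the longest of 33 on chromosome III. Most members never passed 25 RPKM, so few pairs of neighbours could be detected together, and no rate over other pairs is given. Of 123 pairs of neighbouring members in a run, 19 had both genes above 25 RPKM in some library, and 7 had both above it in the same library. The clearest was fbxa-67 with fbxa-23, a pseudogene next to it. fbxa-23 passed 25 RPKM in 5 libraries (172 and 69.8 RPKM in MS+, 34.99 RPKM in D-, 47.6 and 34.0 RPKM in C-), and fbxa-67 was above 25 RPKM in all 5. Next to fbxa-23 lies fbxa-11, which shared 1 library with it. In D+ replicate 6 fbxa-67 and fbxa-11 reached 678 and 914 RPKM, and in MS+ replicate 1 they reached 158 and 227 RPKM.

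How the deposited counts treat a read that matches several members was not given in the sources used here, and neither was whether strand was used. Levels of fbxa-67, fbxa-23 and fbxa-11 are therefore uncertain to the extent that they share sequence. On another chromosome, fbxa-24 (chromosome II) had low counts that were highest where fbxa-67 was high. It held 34, 31, 29 and 23 counts in MS+ replicate 6, D+ replicate 6, D+ replicate 7 and MS+ replicate 7. There fbxa-67 held 1501, 1069, 964 and 747 counts. In MS+ replicate 5 fbxa-67 held 143 counts and fbxa-24 held 0. Whether reads were shared was not tested, and fbxa-24 was named after its values were seen. In the Ensembl annotation fbxa-67 also overlaps a pseudogene on its own strand, fbxa-11 overlaps noncoding transcripts on both strands, fbxa-83 holds piRNA loci on both strands, and fbxa-208 overlaps fbxa-78 on the opposite strand. Over members above 25 RPKM in at least 5 libraries, the pair whose levels were most alike was fbxa-103 with fbxa-120, on chromosomes I and X, with Pearson's r of 0.53 and Spearman's rho of 0.66 on the log2(RPKM + 25) scale over the 43 libraries. These share depth and mix of cells, and no test was made. Every one of the 5 libraries with fbxa-120 above 25 RPKM also had fbxa-103 above it.

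Several of the partners through which an F-box protein acts were detected at high levels. Of 34 SCF and related genes, 24 were tested in MS, 20 in D, 14 between C-in and C-out, 21 between C-in and C- and 19 between C-out and C-, and 0 were called in either direction in any of the 5 (edgeR's quasi-likelihood test, Benjamini-Hochberg adjusted). Their median log2 fold changes were 0.22 in MS, 0.72 in D and 1.16, 1.12 and -0.31 in the 3 C comparisons, against 0.33, 0.53, 0.25, 0.69 and -0.08 over all genes tested. The adaptor gene skr-1 averaged 832 RPKM over the 43 libraries and passed 25 RPKM in 42, the ubiquitin-conjugating enzyme gene ubc-3 averaged 470.2 RPKM and passed in all 43, and the cullin gene cul-1 averaged 45.7 RPKM and passed in 18. skr-21, an adaptor of the same family, had 12.3 RPKM in C-in, 123 RPKM in C-out and 315 RPKM in C- on average, and its log2 fold change of -4.11 (SE 1.22) in C-in against C- did not pass (adjusted p = 0.0628). No fbxa gene reached the mean of skr-1 or ubc-3, the highest being fbxa-67 at 85.2 RPKM.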

How the data were processed

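Polyadenylated RNA of single dissected embryos was amplified with the SMARTer Ultra Low kit and made into Nextera XT libraries. The authors deposited, for each library, the read count, the length and the RPKM of 31383 genes. Per the labels, the processing notes name ce10 and bedtools, and no aligner or counter is given in the sources used here. Coverage tracks in ce10 coordinates were not used here. Embryos in which 1 library held too many spike-in reads had been rejected by the authors (8 libraries) and entered only an alternative.

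Members were counted against 25 RPKM per library and by group mean. Counts were tested with edgeR 4.0.16 (R 4.3.3), TMM scaling, genes above 25 RPKM in as many libraries as the smaller group, Benjamini-Hochberg over all genes, threshold 0.05. An exact two-sided permutation test of mean log2(RPKM + 25), adjusted likewise over all genes above 25 RPKM in 1 library, covered members below that filter. Adding 25 understates the changes of low genes. Alternatives used DESeq2 1.42.0, limma 3.58.1, other scaling, no filter, a pseudocount of 1, embryo blocks and left-out embryos. Scripts were tested on simulated data. Groups came from the sample titles, and the numbers pair libraries of one embryo by the series design; deviations of such pairs correlated at -0.12 to 0.11 over all genes. Each library is a separate dissection, and intervals on counts were not computed; 3 counts correspond to 0.982 to 7.20 CPM, and the number covers counting error only.

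Named members were those past a threshold, those with the 3 smallest unadjusted p values per comparison, the 10 with the highest mean, those with a group median above 25 RPKM, and fbxa-11, fbxa-67 and fbxa-83; members called without the filter, high in 1 library or counted on 1 side of the dissections were named after their values were seen. The members, gene lists and tests were chosen with earlier results of these data known.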

Additional observations from a re-analysis of the deposited data

Results flagged for a closer look

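A member's level entered this check only with a group mean above 25 RPKM, which 1 high library can bring about. The number found is therefore not set against a share by chance. In 52 sets of values of 1 group (group levels above 25 RPKM of named members, and the per-library number and sum of members), 10 held a library far from the others. These were fbxa-83 at 211.1 RPKM in MS+ replicate 6 (others 1.00 to 15.2 RPKM), fbxa-101 at 740.9 RPKM in D+ replicate 1 (others 0 to 22.9 RPKM), fbxa-11 at 227.2 RPKM in MS+ replicate 1 (others 0 to 1.81 RPKM) and at 913.9 RPKM in D+ replicate 6 (others 0 to 7.68 RPKM). They further included fbxa-47 at 536.6 RPKM in D+ replicate 8 (others 0 to 2.28 RPKM), fbxa-129 at 931.2 RPKM in D+ replicate 4 (others 0 to 5.53 RPKM) and fbxa-93 at 581.1 RPKM in MS+ replicate 5 (others 0 to 1.31 RPKM). All of these 7 libraries were MS+ or D+ by their labels, but D+ replicate 8 held few D marker transcripts.

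C-in replicate 5 had 4 members above 25 RPKM, against 0 or 1 in the other C-in libraries. The RPKM summed over the family was 65.0 in MS+ replicate 4 (others 504 to 1869) and 41.8 in D+ replicate 3 (others 511.5 to 1956).

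The rejected libraries also held members above 25 RPKM that exceeded every accepted library of the same group. There were 5 such members in the rejected D+ library, 4 in the rejected D- library, 5 and 1 in the C-in libraries of replicates 3 and 7, and 6 and 4 in the C- libraries of replicates 3 and 7. Both rejected C-out libraries had none. The rejected D+ and C-in libraries were shallow, and these values have no replicate check.

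For 6 members the MS and D fold changes were set against each other in edgeR, and none differed at an adjusted p under 0.05. The largest difference was 3.96 on the log2 scale for fbxa-103 (MS fold change minus D fold change, adjusted p = 0.393, edgeR's quasi-likelihood test).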

How the results depend on the processing

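The members called by edgeR's quasi-likelihood test were 0 in each comparison, also with median-ratio scaling in place of TMM, with all 7 groups in 1 fit and with the replicate block. Without the filter on low values they were 7 in MS, 4 in D, 1 between C-in and C-out and 2 between C-out and C-. In D they were 4 as well without both the filter and embryo 8, an alternative chosen after seeing the data, with fbxa-66 in place of fbxa-13. DESeq2 called 1 in D and 1 between C-in and C-, and limma 1 between C-in and C- with either pseudocount (25 or 1). Leaving out 1 embryo gave 0 to 1 in MS, where fbxa-46 passed the filter and was called without embryo 2, and 0 elsewhere.

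fbxa-67 in D had a log2 fold change of 3.24 with DESeq2 (adjusted p = 0.0427). fbxa-83 between C-in and C- was past the threshold with DESeq2 (-3.68) and with limma (-2.11 with 25 added, -5.14 with 1 added), and leaving out 1 embryo gave -6.07 to -4.09. The signs of 3 uncalled differences turned. fbxa-103 in MS was 0.14 with DESeq2, 0.15 with median-ratio scaling, 0.09 without the filter and -0.52 to 0.24 with 1 embryo left out. fbxa-83 in D was -0.11 and -1.14 with limma (25 and 1 added), -1.83 with the replicate block, which pairs libraries of one embryo, and -0.29 to 2.07 with 1 embryo left out. fbxa-83 between C-out and C- was -0.92 and -2.38 with limma, -2.66 with the replicate block and -1.62 to 0.82 with 1 embryo left out. The cause was not tested in any of these.

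For fbxa-46 in MS the permutation test gave -1.84 with median-ratio scaling and -2.42 with the replicate block, both past no threshold, and -2.80 to -2.18 with 1 embryo left out, where fewer libraries allow fewer permutations. With 1 added in place of 25, an alternative chosen after seeing the data, it was -5.94 (adjusted p = 0.0427). The replicate block changed no other call.

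Members with a group mean above 50 RPKM were 5 in MS+ and 7 in MS-, 5 in D- and 5 in C-out beside 3 in C-. Those above 10 RPKM were 26 in MS-, 24 in D-, 4 for C-in, 16 for C-out and 28 for C-. By the median above 25 RPKM there were 1 in MS+ and 6 in MS-, 0 in D+ and 3 in D-, and 0 for C-in, 0 for C-out and 4 for C-. With 1 embryo left out the numbers by the mean were 11 to 14 in MS+, 10 to 14 in MS-, 7 to 9 in D+, 10 to 12 in D-, 0 to 2 in C-in (0 without replicate 5), 4 to 9 in C-out (4 without replicate 4) and 9 to 15 in C-. No member was listed at a placeholder length, so the rescaling planned for such members changed nothing.

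Depth and the amount of RNA in a few cells limit what a low value means here. In 416394 counts of the shallowest library, 3 counts are 7.20 CPM. Members ranged widely between libraries of 1 group, and a missing call does not show equal levels.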
